A study of Mus musculus with 6 samples.

Results

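The small heat shock proteins of muscle are 7 genes here, Hspb1, Hspb2, Hspb3, Hspb6, Hspb7, Hspb8 and Cryab, chosen by name as the family members known from striated muscle. All 7 were found among the 55356 genes of the deposited table, and all 7 passed the filter on low values, a normalized count of 10 or more in 3 or more libraries. The cells were C2C12 myotubes, which the C2C12 mouse myoblast line forms in culture by fusion. There were 3 libraries from cultures exposed to 20 µM sorafenib, an inhibitor of several protein kinases used against cancer, for 24 h, and 3 from cultures kept in 0.1% of its solvent DMSO for the same time. Each library of a group came from a separate experiment by the series' design text, all on this cell line. A cultured line lacks the nerve, the vessels and the load of a muscle, so levels here are those of a culture model. The labels name the tissue skeletal muscle, and all 11 markers of differentiated myotubes were measured well above the filter in both groups.

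Small heat shock proteins are chaperones built around a shared alpha-crystallin domain. They assemble into oligomers that hold unfolding proteins until chaperones of the Hsp70 family refold them or pass them to degradation, and they do so without ATP. In muscle they bind desmin, actin, titin and filamin, and move to the Z-disc and to filaments under mechanical or heat stress. The family has members made in many tissues and induced by stress, such as Hspb1 and Cryab, and members found mostly in heart and skeletal muscle, such as Hspb2, Hspb3 and Hspb7. In humans, changes in HSPB1, HSPB3 and HSPB8 cause motor neuropathies, and changes in CRYAB cause a myofibrillar myopathy.

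On GRCm38 in the GENCODE M21 annotation, Hspb1 lies at chr5:135887919-135889563 on the plus strand and Hspb8 on the same chromosome at chr5:116408491-116422864 on the minus strand. Hspb7 lies at chr4:141420779-141425311 and Hspb6 at chr7:30552178-30555443, both on the plus strand, and Hspb3 at chr13:113662896-113663676 on the minus strand. Cryab, at chr9:50751325-50756636 on the plus strand, and Hspb2, at chr9:50751078-50752354 on the minus strand, are neighbours. Their annotated exons overlap by 252 bases, or 30.2% of the exonic bases of Hspb2 and 17.0% of those of Cryab. The exons of Hspb6 overlap those of Proser3 on the opposite strand by 122 bases and those of Lin37 by 3 bases. The libraries kept strand per the labels' protocols, but the sources used here do not say whether the counting did. The values of Hspb2, Cryab and Hspb6 are uncertain to that extent.

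Upstream sequence from RefSeq on GRCm38.p6 was matched for 5 of the 7 genes, in 6 windows since Hspb6 has 2 annotated starts. Hspb1 and Hspb7 are shown because they stood at both ends of the range of changes given below. Each run is the 250 bases before the annotated start, read 5′ to 3′ on the strand of the gene. Capitals mark matches to an inverted pair of heat shock element units (GAANNTTC or TTCNNGAA, the letters bound by heat shock factors) and to the E-box CANNTG bound by myogenic factors. The Hspb1 window is chr5:135887669-135887918 and the Hspb7 window is chr4:141420529-141420778, both on the plus strand.
Hspb1: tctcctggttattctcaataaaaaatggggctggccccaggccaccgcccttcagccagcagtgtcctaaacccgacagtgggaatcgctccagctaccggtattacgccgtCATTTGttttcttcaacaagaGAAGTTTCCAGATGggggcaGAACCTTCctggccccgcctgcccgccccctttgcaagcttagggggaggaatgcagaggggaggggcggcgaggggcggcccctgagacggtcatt
Hspb7: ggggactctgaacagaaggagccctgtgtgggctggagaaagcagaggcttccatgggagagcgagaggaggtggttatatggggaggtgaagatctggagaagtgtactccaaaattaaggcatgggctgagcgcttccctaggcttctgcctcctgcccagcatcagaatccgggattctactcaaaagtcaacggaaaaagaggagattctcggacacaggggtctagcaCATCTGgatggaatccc

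The heat shock element pair, searched on both strands from 250 bases before to 50 after the start, was in 4 of the 6 windows. These windows belonged to 4 of the 5 genes. The pair was present in 15.1% of all 32851 promoter windows of that length. Hspb1 had 2 matches, the first at position -117 and the second at -97 from the start. Hspb6 had 1 at -120 of its second start, Hspb8 had 1 at position 3 inside the transcript, and Hspb3 had 1 at -224. The same 8 letters GAAGTTTC stood in Hspb1, Hspb6 and Hspb8, shown here with 10 bases on each side and the pair in capitals. The Hspb1 site is chr5:135887792-135887819 (plus strand), the Hspb6 site chr7:30553171-30553198 (plus strand) and the Hspb8 site chr5:116422845-116422872 (minus strand).
Hspb1: ttcaacaagaGAAGTTTCcagatggggg
Hspb6: agtaattattGAAGTTTCtaaataagga
Hspb8: gaagccaggaGAAGTTTCtaggctcgcg

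An E-box CANNTG, present in 72.3% of all windows, was found in 4 of the 6 windows, those of Hspb1, Hspb3, Hspb7 and Hspb8. In the Hspb1 window 1 E-box follows the first heat shock element pair directly. The E-box CAGCTG (16.3% of all windows), the ATF4 composite element TGATGNAA (3.97%) and the antioxidant element TGACNNNGC (12.4%) were found in 0 of the 6 windows. A match describes letters and is not evidence of binding.

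**Figure D1:**
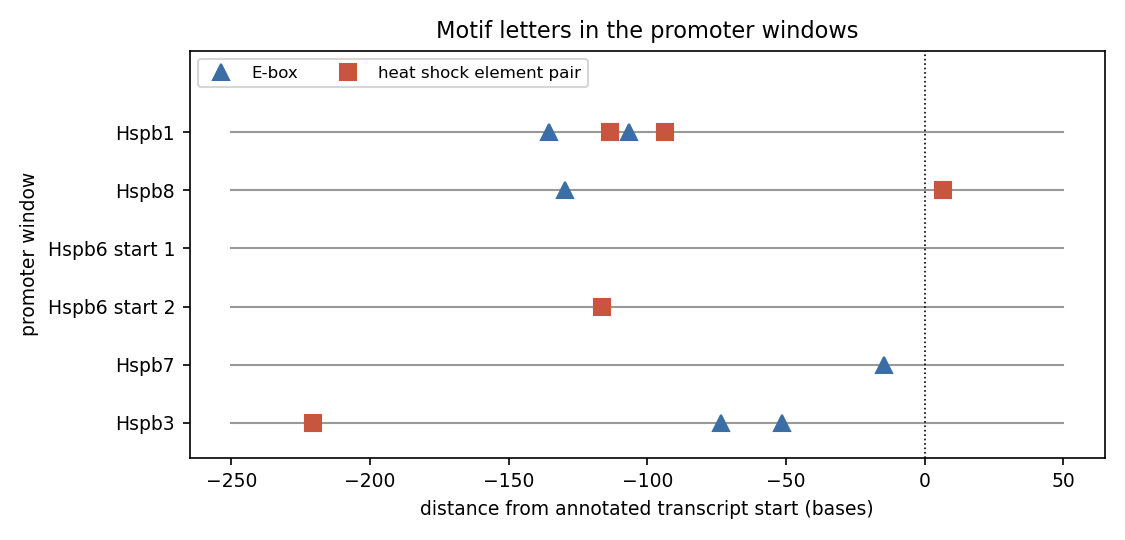
Positions of motif letters in the 6 promoter windows of 5 small heat shock protein genes, as distance in bases from the annotated transcript start (dotted line); squares are heat shock element pairs and triangles are E-boxes CANNTG. Hspb1 has 2 heat shock element pairs, Hspb6 (second start), Hspb8 and Hspb3 have 1 each, and Hspb7 has an E-box only.

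The deposited values are RNA-seq values per gene that the authors normalized with DESeq2. Their column names end in quant sf, a file name that transcript quantifiers use, so they may be estimated rather than counted reads. Depth, if the most frequent low value is taken as 1 read, was 76.4M to 77.4M reads per sorafenib library and 65.5M to 80.2M per DMSO library. The lowest value of any member, Hspb3 in sorafenib replicate 1, then corresponds to about 157 reads. Genes were tested with limma on log2(normalized count + 1), and a gene was called at a Benjamini-Hochberg adjusted p under 0.05 over all 16645 genes tested. Log2 changes below are on that scale, given as sorafenib minus DMSO. When each library was scaled to the same total, the median over all genes moved up by 0.16 on the log2 scale. The smallest changes among the members are therefore given under both scalings, and those of other genes only in part.

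Most muscle small heat shock protein genes were lower in sorafenib. Of the 7 genes, 6 were called lower and 1, Hspb1, was called higher. Among all genes tested, 37.8% were called lower, 38.8% higher and 76.6% in either direction. Hspb7, Hspb3 and Hspb2, the members largely limited to striated muscle, were lower by 6.51-fold, 4.88-fold and 2.95-fold, and these 3 were the members past 2-fold, against 17.3% of all genes. Cryab and Hspb8 were lower by 1.81-fold and 1.44-fold. Hspb6, lower by 1.17-fold, and Hspb1, higher by 1.07-fold, each lost the call under 5 of 13 alternative settings. The median log2 change was −0.85 over the 7 genes and 0.02 over all genes tested. For 6 members the 3 sorafenib libraries all lay below the 3 DMSO libraries, which was so for 39.4% of all genes tested, while 79.5% had groups apart in either direction. All 11 myotube markers were lower as well, with values given further on. In bulk RNA, fewer myotubes and less of a transcript per myotube cannot be told apart.

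**Figure D2:**
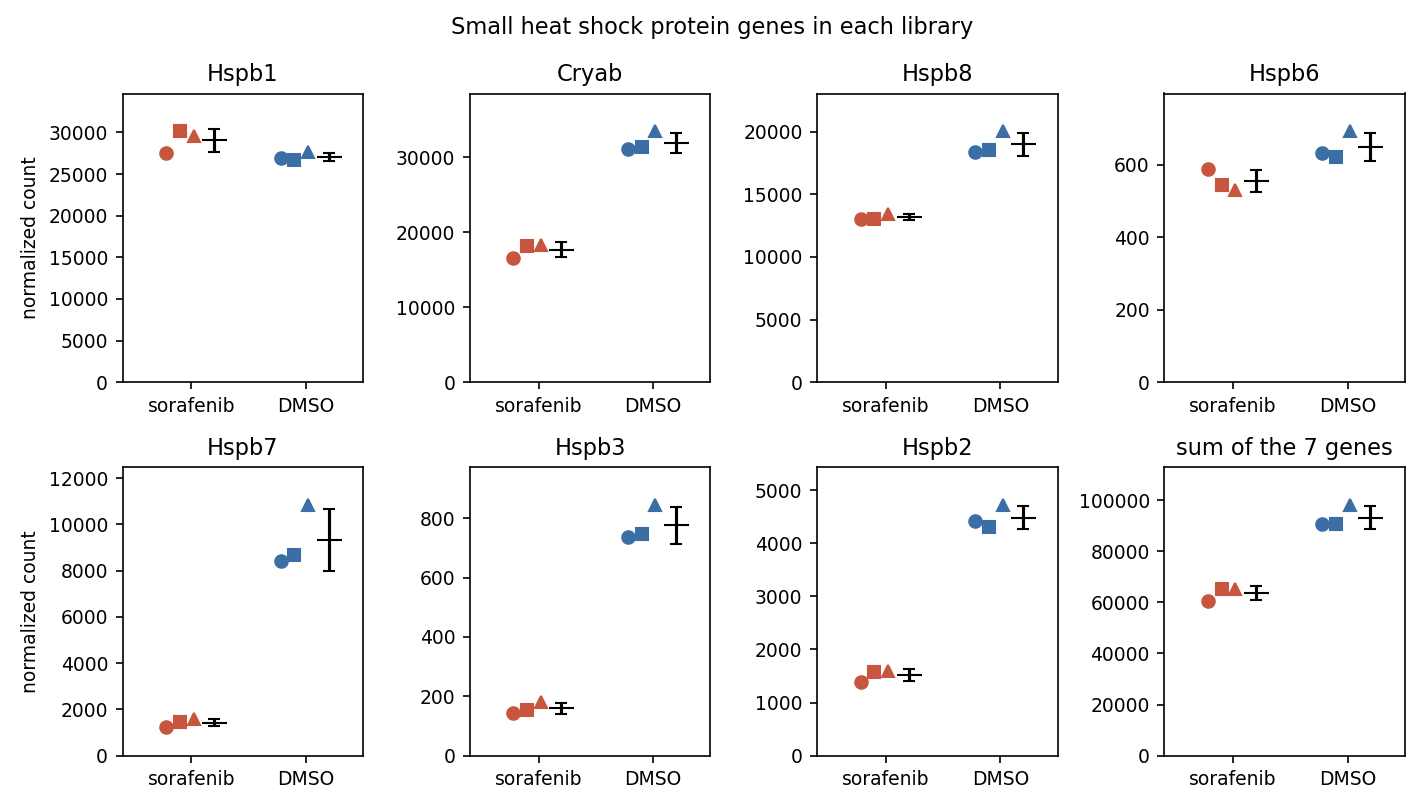
Normalized counts of each small heat shock protein gene, and of their sum, in the 3 sorafenib and 3 DMSO libraries (circle, square and triangle are replicates 1, 2 and 3; the bar is the mean ± SD). All panels start at 0. The groups overlap for Hspb1 alone among the 7 genes, and the sum of the 7 is 60399 to 65208 in sorafenib and 90538 to 98263 in DMSO.

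Hspb1 (ENSMUSG00000004951.11), the small heat shock protein that caps and stabilizes actin filaments, had 27488, 30153 and 29538 normalized counts in sorafenib, against 26870, 26678 and 27595 in DMSO. The groups overlapped, because sorafenib replicate 1 lay below DMSO replicate 3. The means were 29060 ± 1396 in sorafenib and 27048 ± 484 in DMSO (SD, n = 3 each). On the log2 scale the change was 0.10 ± 0.04 (SE, limma adjusted p = 0.0434). The call was lost without sorafenib replicate 2 or 3 or any 1 of the DMSO libraries, with log2 changes of 0.08 to 0.12 and limma adjusted p values of 0.0590 to 0.171. In the authors' deposited table its adjusted p was 0.0666. Scaled to equal totals the log2 change was 0.26 ± 0.04 (limma adjusted p = 0.000323), and with quantile normalization it was 0.30 ± 0.04.

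Cryab (ENSMUSG00000032060.11), the alpha-B crystallin that protects desmin filaments, had 16525, 18229 and 18340 normalized counts in sorafenib, against 31101, 31334 and 33517 in DMSO. Every sorafenib library lay far below every DMSO library, and the log2 change was −0.85 ± 0.05 (SE, limma adjusted p = 3.68e-07). It ranged from −0.88 to −0.70 over the 13 alternative settings.

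Hspb8 (ENSMUSG00000041548.5), which works with the cochaperone Bag3 to pass damaged filament proteins to autophagy, had 13013, 13031 and 13456 normalized counts in sorafenib, against 18390, 18497 and 20038 in DMSO. The groups did not overlap, and the 3 sorafenib libraries lay close together. The log2 change was −0.53 ± 0.04 (SE, limma adjusted p = 2.53e-06). Scaled to equal totals it was −0.37 ± 0.04.

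Hspb6 (ENSMUSG00000036854.15), a small heat shock protein that cyclic nucleotide-dependent kinases phosphorylate, had 589.6, 544.9 and 531.8 normalized counts in sorafenib, against 631.4, 620.8 and 692.9 in DMSO. The groups did not overlap, but the highest sorafenib and the lowest DMSO library lay close. The log2 change of Hspb6 was −0.22 ± 0.08 (SE, limma adjusted p = 0.0265). Scaled to equal totals it was −0.07 ± 0.08 (limma adjusted p = 0.434). The call was also lost with quantile normalization and without sorafenib replicate 2, sorafenib replicate 3 or DMSO replicate 3, at limma adjusted p values of 0.0532 to 0.0947. In the authors' deposited table its adjusted p was 0.0603.

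Hspb2 (ENSMUSG00000038086.5), first described as a protein that binds the kinase Dmpk, had 1380, 1577 and 1598 normalized counts in sorafenib, against 4416, 4299 and 4724 in DMSO. The groups lay well apart, with a log2 change of −1.56 ± 0.07 (SE, limma adjusted p = 5.17e-08).

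Hspb3 (ENSMUSG00000051456.5), which forms a complex with Hspb2 in muscle cells, had 143.7, 153.2 and 180.2 normalized counts in sorafenib, against 735.6, 745.3 and 845.6 in DMSO. Its groups lay well apart, with a log2 change of −2.28 ± 0.11 (SE, limma adjusted p = 1.25e-07).

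Hspb7 (ENSMUSG00000006221.8), a member of heart and skeletal muscle that binds filamin C, had 1260, 1464 and 1565 normalized counts in sorafenib, against 8394, 8672 and 10849 in DMSO. It had the lowest change of the 7, and 3.18% of all genes tested had a lower one. The log2 change was −2.70 ± 0.11 (SE, limma adjusted p = 3.06e-07). Hspb2, Hspb3, Hspb7, Hspb8 and Cryab were called lower under all 13 alternatives. In the authors' deposited table the log2 change of Hspb7 was −2.69, that of Hspb3 −2.27 and that of Hspb2 −1.56.

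**Figure D3:**
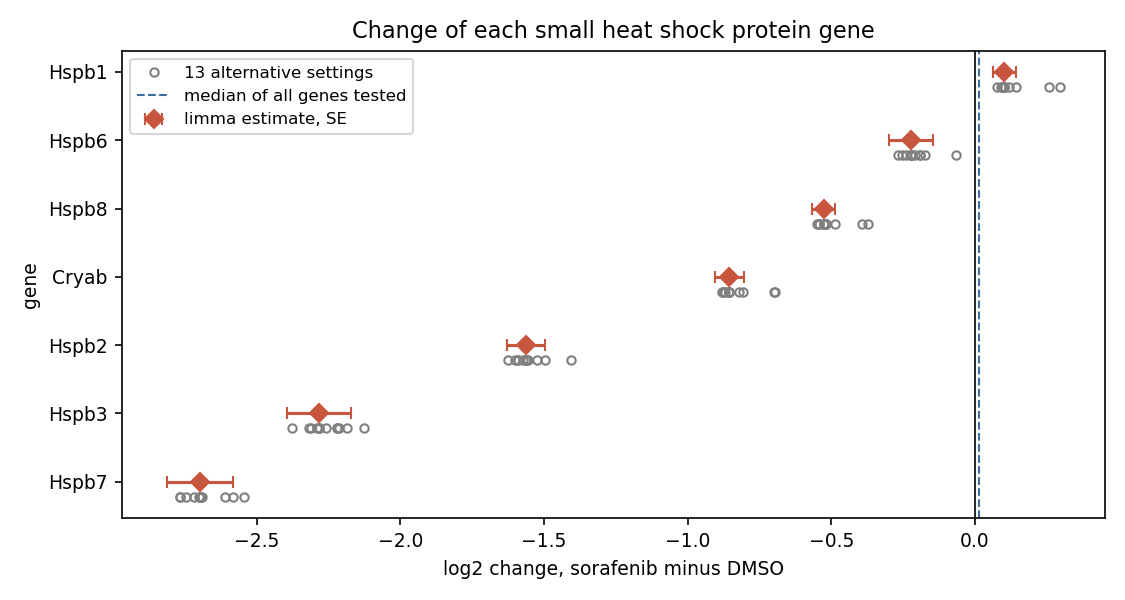
Log2 change (sorafenib minus DMSO) of each small heat shock protein gene, as the limma estimate with its SE (diamonds) and under 13 alternative settings (open circles); the dashed line is the median of all genes tested. Hspb1 stands above 0 at 0.10, Hspb6 at −0.22 comes closest to 0 from below under equal totals, and Hspb7 is lowest at −2.70.

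Compared per kilobase of exon, the order of levels in sorafenib was Hspb1, Cryab, Hspb8, Hspb2, Hspb7, Hspb6 and Hspb3. Their levels in sorafenib were 28186 ± 1354, 11966 ± 688, 6752 ± 128, 1820 ± 144, 516.2 ± 55.9, 241.6 ± 13.2 and 203.6 ± 24.3 normalized counts per kilobase (SD, n = 3). In DMSO the first 5 kept these places, at 26235 ± 469, 21625 ± 901, 9731 ± 473, 5371 ± 263 and 3360 ± 486 per kilobase, but Hspb3, at 992.9 ± 78.0, stood above Hspb6, at 282.0 ± 16.9 (SD, n = 3). Neighbours in each order had ranges that did not overlap, though in sorafenib the lowest Hspb6 library, at 231.3, all but met the highest Hspb3 library, at 230.8. With the length of the longest transcript in place of all exons, the ranges of Hspb1 and Cryab overlapped in DMSO, and the order by mean was kept in both groups. The exon lengths are annotated ones and the transcript lengths in use in these cells were not given.

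Summed over the 7 genes, the level per kilobase was 47058, 51107 and 50894 in sorafenib, against 66064, 66058 and 70671 in DMSO. The sorafenib sum was 0.735 of the DMSO sum. Hspb1 made up 56.7% ± 0.47 of this sum in sorafenib and 38.8% ± 0.84 in DMSO. Cryab made up 24.1% ± 0.31 in sorafenib and 31.99% ± 0.14 in DMSO, while Hspb8 held 13.6% ± 0.55 in sorafenib and 14.4% ± 0.14 in DMSO (SD, n = 3 each). Hspb2, Hspb7 and Hspb3 made up 3.66%, 1.04% and 0.409% in sorafenib, against 7.94%, 4.96% and 1.47% in DMSO. Hspb6 made up 0.488% in sorafenib and 0.417% in DMSO.

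**Figure D4:**
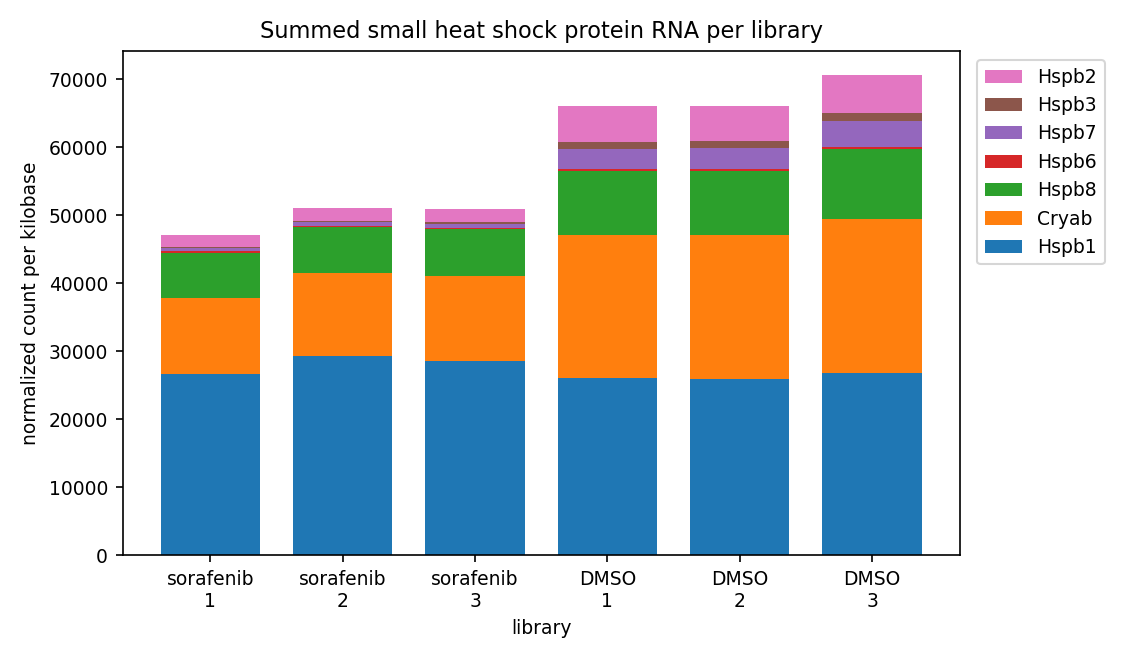
Normalized counts per kilobase of exon, stacked over the 7 small heat shock protein genes, in the 3 sorafenib and 3 DMSO libraries. The Hspb1 segment averages 28186 in sorafenib and 26235 in DMSO, the Cryab segment averages 11966 in sorafenib and 21625 in DMSO, and the summed bar is 47058 to 51107 in sorafenib and 66058 to 70671 in DMSO.

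Ratios between members within a library do not change when a whole library is multiplied by 1 factor. Hspb1 over Cryab, both as normalized counts, was 1.66, 1.65 and 1.61 in the sorafenib libraries and 0.864, 0.851 and 0.823 in the DMSO libraries. Cryab over its neighbour Hspb2 was 11.98, 11.6 and 11.5 in sorafenib, against 7.04, 7.29 and 7.09 in DMSO. Neither ratio overlapped between the groups, and within the chr9 pair the larger fold was that of Hspb2, 2.95-fold lower against 1.81-fold for Cryab. Hspb8 over Bag3 was 1.33, 1.37 and 1.41 in sorafenib, against 2.05, 2.08 and 2.21 in DMSO. The ratios are given as a description, with no test.

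Some libraries were low or high for most members. All 7 were highest among the DMSO libraries in DMSO replicate 3, and 6 of 7 were lowest among the sorafenib libraries in sorafenib replicate 1, Hspb6 being the exception. All 11 myotube markers were also lowest in sorafenib replicate 1 among the sorafenib libraries, and 7 of 11 were highest in DMSO replicate 3 among the DMSO libraries. The share of all genes with these extremes was not computed, so they are not read as particular to the members. The part of this library difference in the results was not tested beyond leaving each library out.

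By the distance between log2 values centred on each gene's mean over the 6 libraries, the genes most like each member were picked from 11488 other named genes with a mean of at least 100. Nearest to Hspb1 was Coq2, at a root mean square difference of 0.0163 on the log2 scale, and nearest to Cryab was Hcfc1r1, also at 0.0163. Hspb6 was nearest to Zhx2 (0.0198) and Hspb8 to Pgk1 (0.0208). Hspb2 was nearest to Unc13d (0.0304), Hspb3 to Arhgef37 (0.0646) and Hspb7 to Ly6c2 (0.0774). Among the members themselves, Hspb6 and Hspb8 were each other's nearest, at 0.163, as were Hspb3 and Hspb7, at 0.219. The nearest member to Cryab was Hspb8, at 0.169, to Hspb1 it was Hspb6, at 0.186, and to Hspb2 it was Cryab, at 0.355.

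Among 4 other genes named with the family, 1 passed the filter. Hspb11, whose product is a part of the intraflagellar transport complex, was that gene and had 908.6, 918.7 and 923.0 normalized counts in sorafenib, against 814.2, 829.3 and 883.5 in DMSO. Its log2 change of 0.12 ± 0.06 did not pass (limma adjusted p = 0.0880), but it did at 0.28 ± 0.06 when scaled to equal totals. Cryaa, the alpha-A crystallin of the lens, was at 0 to 1.38 in sorafenib and at 1.49 to 3.35 in DMSO. Odf1, of the sperm tail, was at 0 to 1.83 in sorafenib and at 0 to 1.19 in DMSO, and Hspb9, of the testis, was listed at 0 in all 6 libraries.

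The counts of the lists that follow stand against the 38.8% higher and 37.8% lower of all genes tested and their median of 0.02. Genes of the heat shock factors changed in both directions. Hsf1, the main factor of the heat shock response, had 8146 ± 261 normalized counts in sorafenib and 5440 ± 58.6 in DMSO (SD, n = 3 each), a log2 change of 0.58 ± 0.04. Hsf2 changed by 0.16 ± 0.05 and was not called with quantile normalization, at 0.09 ± 0.05. Hsf4, a factor best known from the lens, changed by −1.05 ± 0.08, and Hsbp1, a protein that binds and restrains Hsf1, by −0.64 ± 0.03. Hsf5, at 0.14 ± 0.36, did not pass. Of these 5 genes, 2 were called higher and 2 lower.

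Other heat shock genes, mostly cytosolic chaperones and cochaperones, were mainly higher. Of 21 in the list, which also holds the mitochondrial chaperones Hspd1 and Hspe1, 16 were called higher, 2 lower and 3 not called, and the median log2 change was 0.48. Hspa1a, a stress-induced Hsp70, had 7583 ± 414 normalized counts in sorafenib and 560.4 ± 21.9 in DMSO (SD, n = 3 each). The log2 change of Hspa1a was 3.76 ± 0.06 and that of its near-identical copy Hspa1b was 3.22 ± 0.05, so the split of reads between the pair is uncertain. The 2 lower genes were the Hsp40 cochaperones Dnajb5, at −1.87 ± 0.08, and Dnaja1, at −0.17 ± 0.04, which was not called with quantile normalization or equal totals. Not called were Hsp90ab1 at −0.07, Hspa4 at 0.02 and Hspa4l at −0.08. With quantile normalization Hsp90ab1 and Hspa4 were called higher at 0.41 and 0.22, and with equal totals at 0.08 and 0.18. Hsp90ab1 was called lower with no filter on low values and without DMSO replicate 2, and Hspa4l without sorafenib replicate 3.

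The partners of Hspb8 in selective autophagy went both ways. Bag3 had 9625 ± 151 normalized counts in sorafenib and 8979 ± 79.0 in DMSO (SD, n = 3 each), and changed by 0.10 ± 0.03 (limma adjusted p = 0.0151). Sqstm1, the autophagy receptor p62, changed by 1.23 ± 0.05 and the ubiquitin ligase Stub1 by 0.26 ± 0.05. Synpo2, which links the Bag3 complex to autophagosome formation, changed by −1.97 ± 0.08, and Dnajb6, a cochaperone of the Z-disc, by −0.34 ± 0.03. Of 5 genes, 3 were called higher and 2 lower, with a median of 0.10.

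The filament genes whose products small heat shock proteins bind were mainly lower. Of 11 tested, 8 were called lower and 2 higher, and the median log2 change was −0.97. Des (desmin) had 101525 ± 4612 normalized counts in sorafenib and 292878 ± 8325 in DMSO (SD, n = 3 each), a log2 change of −1.53 ± 0.04. Cardiac actin (Actc1) changed by −2.20 ± 0.12 and titin (Ttn) by −1.79 ± 0.12. Flnc (filamin C), a partner of Hspb7, changed by −0.62 ± 0.03, but by −0.05 ± 0.03 with quantile normalization, where it was not called. Flna changed by −0.49 ± 0.04, a sign that reversed to 0.10 ± 0.04 with quantile normalization. Synm, an intermediate filament gene, was called higher at 0.76 ± 0.11, and Vim did not pass at 0.02 ± 0.04. With quantile normalization Vim was called higher at 0.55, and with equal totals at 0.17.

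Kinases and partners of the small heat shock proteins were divided. Of 11 genes 10 were tested, with 3 called higher, 6 lower and a median log2 change of −0.28. Dmpk, the kinase that Hspb2 binds, had 11327 ± 449 normalized counts in sorafenib and 37925 ± 1414 in DMSO (SD, n = 3 each), a log2 change of −1.74 ± 0.04. Prkg1, which phosphorylates Hspb6, changed by −1.87 ± 0.06. Mapkapk2, the main kinase of Hspb1, changed by −0.42 ± 0.03. The 3 higher genes were Mapkapk3 (1.57 ± 0.26), Mapkapk5 (0.92 ± 0.04) and Mapk14 (0.26 ± 0.03), the p38 kinase upstream of Mapkapk2. Mapkapk3 was low, at 46.2 to 69.5 normalized counts in sorafenib and 14.3 to 24.0 in DMSO. With a minimum of 50 it was not tested, and 2 genes of the list were called higher. Prkd1 did not pass at 0.06 ± 0.40, and Mapk13 was below the filter. Mapk12 was called lower at −0.13 ± 0.04, but not with equal totals, where it was 0.02, nor without DMSO replicate 3.

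**Figure D5:**
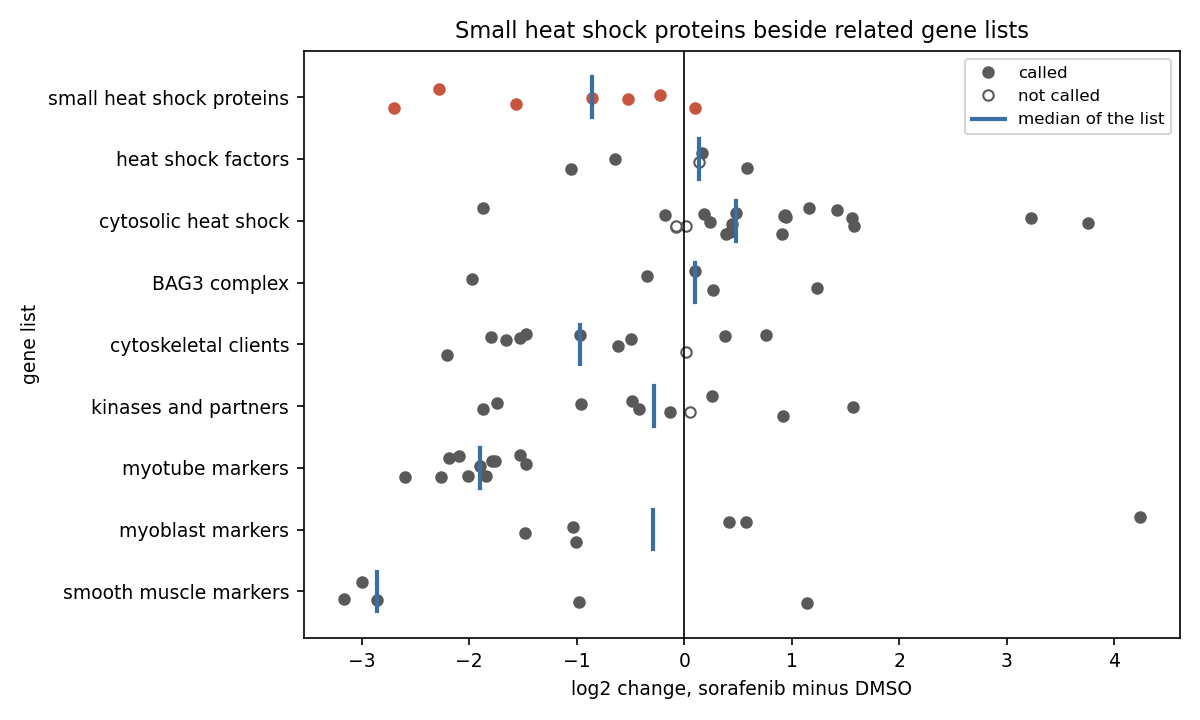
Log2 change (sorafenib minus DMSO) of every tested gene of the small heat shock protein set and of 8 related lists; filled points were called, open points were not, and the blue bar is the median of each list. The small heat shock proteins have a median of −0.85, other heat shock genes (the cytosolic heat shock row) 0.48 and myotube markers −1.90.

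All 11 myotube markers were called lower, with a median log2 change of −1.90, and their summed level was 498356 to 599806 in sorafenib and 1830882 to 2001415 in DMSO. Atp2a1, the fast calcium pump, changed by −2.59 ± 0.10, Myh8 (perinatal myosin) by −2.26 ± 0.12, Ckm (muscle creatine kinase) by −1.90 ± 0.07 and Myog (myogenin) by −1.78 ± 0.08. Des and Acta1 stand in both the myotube list and the filament list. Among 6 tested myoblast markers of 7, 3 were called higher and 3 lower, with Myf5 at 4.24 ± 0.04, Cd34 at 0.57 ± 0.08 and Vcam1 at 0.42 ± 0.05 higher, and Cdh15 at −1.48 ± 0.04, Pax7 at −1.03 ± 0.07 and Itga7 at −1.01 ± 0.03 lower. The summed level was 100483 to 105716 in sorafenib and 174436 to 177672 in DMSO, and most of it was Itga7, which averaged 67992 in sorafenib and 136486 in DMSO. Pax3 was at 0 to 3.83 in sorafenib and at 0 to 1.26 in DMSO.

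Of 5 genes listed as smooth muscle markers, 4 were called lower and 1 higher. All libraries came from 1 cell line, so these genes are not read here as a sign of smooth muscle cells. Their summed level was 26270 to 29240 in sorafenib and 167641 to 190659 in DMSO. Tagln changed by −3.17 ± 0.22 and Acta2 by −3.00 ± 0.05, and Myh11, the defining myosin and the 1 gene called higher, was near the minimum of 10 in DMSO, at 23.5 to 28.3 in sorafenib and at 8.56 to 12.95 in DMSO. The part of the myotube, myoblast and smooth muscle genes in the changes of the small heat shock proteins was not tested.

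Of 6 leukocyte markers 2 passed the filter, 1 called higher and 1 lower, with a summed level of 385.2 to 470.1 in sorafenib and 112.4 to 119.0 in DMSO. Cd68, a lysosomal protein also made outside leukocytes, changed by 3.06 ± 0.15, and Itgam by −1.77 ± 0.21, while Ptprc was below 1 in every library and Adgre1 at 0. Endothelial markers summed to 94.9 to 130.3 in sorafenib and 126.4 to 171.9 in DMSO. Cdh5, the endothelial cadherin, was at 4.60 to 6.39 in sorafenib and at 14.6 to 23.5 in DMSO, so it reached the minimum of 10 only in DMSO. Vwf was at 54.1 to 78.4 in sorafenib and at 92.2 to 134.5 in DMSO, and Tek at 22.9 to 34.5 in sorafenib and at 7.05 to 29.0 in DMSO, and whether either was called depended on the setting. The glial and neuronal markers Sox10, Rbfox3 and Snap25 were at 0 in all 6 libraries. The 5 adipocyte markers had 0 tested and summed to 1.84 to 4.04 in sorafenib and 0 to 2.93 in DMSO, Cfd being at 0 throughout.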

How the data were processed

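RNA of 6 C2C12 libraries was sequenced after poly(A) selection and stranded library preparation, per the labels' protocols. The deposited signal values are counts, possibly estimated ones, that the authors normalized with DESeq2, as the table's headers and the submitters' processing notes name it. The table also holds the authors' log2 fold change, its standard error, a Wald score, and p-value columns, which are quoted only as the authors'. For all 55356 genes the 6 library values average to the authors' base mean (relative tolerance 1e-06). The submitters' processing notes give bcl2fastq, the authors' DESeq2 and GRCm38.p6, while the quantifier and its use of strand are not stated in what was used here. Of 52080 identifiers shared with GENCODE M21, 1739 lie within 1 base of the table's positions, so the positions printed are those of M21, matched by identifier.

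Low values, under 20, were whole multiples of the value of 1 read, within 0.02, for 59.0% to 68.1% of values per library, so whole reads were not recovered and no count model was run. Differences were fitted with limma 3.58.1 (trend and robust options, R 4.3.3) on log2(normalized count + 1), with group as the only term and Benjamini-Hochberg adjustment over 16645 genes that had at least 10 in at least 3 libraries. Python 3.11.15, pandas 2.3.3 and matplotlib 3.10.9 did the rest. The fit was tested on simulated data in which most genes did not change, whereas most genes were called here. That test therefore does not measure how accurate the calls given here are. Alternatives were quantile normalization, equal totals, no filter, a minimum of 50, pseudocounts of 0.1 and 10, a block for replicate number, and each library left out. P-values measure the spread between the 3 experiments of a group on 1 cell line.

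The members and lists were chosen with earlier results of these data known. Named genes were the 7 members, in each other list the 2 called genes with the largest change and a mean of at least 100, genes behind counts of 5 or fewer, the gene most like each member, and Hsf1, Hsf2, Bag3, Des, Flnc, Cryaa, Myog and Ckm. Any other was named after its values were seen. Lists were described by counts and medians only. Some genes of the lists are not reported here.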

Additional observations from a re-analysis of the deposited data

How the results depend on the processing

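Among the 7 small heat shock protein genes, 81 of 91 values under an alternative kept the direction and the side of the threshold, and the other 10 kept the direction but were not called: 5 of Hspb1 and 5 of Hspb6. Leaving out 1 library, the count of members higher ranged from 0 to 1 and the count lower from 5 to 6. The count lower was 5 with quantile normalization and with equal totals. Over all genes, 6453 were higher and 6297 lower, against 7740 and 5271 with equal totals. With the replicate number as a block 1 member was higher and 6 lower, and over all genes 6404 were higher and 6231 lower. The block left the log2 changes of the members as they were, but their SE moved. It fell for every member but Hspb6, most for Hspb7, from 0.115 to 0.053, and rose for Hspb6 from 0.078 to 0.084. The correlations between same-numbered libraries of their deviations from the group means were 0.08, 0.04 and 0.02. All were positive but under the 0.1 taken here as a sign of pairing. The labels do not say whether a number marks a shared experiment. Library numbers in the column names alternate between DMSO and sorafenib in replicate order, so a pairing remains possible. Every library correlated best with its own number except DMSO replicate 3, which correlated best with sorafenib replicate 2 at 0.03. At this depth the lowest member, Hspb3, corresponds to about 157 estimated reads in its lowest library. The cause of the lost calls was not tested.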
